A study of Homo sapiens with 9 samples.

Results

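Control-transfected H1299 cells carried the RNA of a dividing, vimentin-rich cell that had little of the lung's differentiated program. H1299 is a widely used cell line from a human non-small cell lung carcinoma, and the members described here were the 3 Scramble samples out of 9 in the series. The samples were chosen by their label alone, as H1299 cells transfected with a scrambled (non-targeting) siRNA and carrying the genotype label control. The other 6 samples, transfected with FIBP siRNA, were not used. All 3 samples shared the transfection itself (100 nM siRNA, RNA taken 48 h later), so an untransfected state was not measured. The line is 1 cancer cell line grown in culture with fetal calf serum, and the design text calls the samples independent without saying from which cultures they came, so each SD below measures only the spread between these samples.

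A cell's expressed genome is the set of genes whose RNA is present, and it carries a record of lineage. Lung epithelium is usually described by its surfactant-making alveolar cells, its secretory, ciliated and basal airway cells and its rare neuroendocrine cells. Epithelial cells are held together by E-cadherin and keratins, whereas mesenchymal cells carry vimentin, N-cadherin and the ZEB and TWIST factors, and cancer lines often sit between these states. Tumor lines also reactivate germline genes on the X chromosome and lose RNA of growth inhibitors.

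Levels are given in FPKM (fragments per kilobase of transcript, scaled to the fragments of the library), summed over the transcripts of each gene, and a gene was called expressed at 1 FPKM or more in all 3 samples. By this rule 13184 of 60455 listed genes were expressed, and among 19858 protein-coding genes 11369 were (57.3%). A further 510 protein-coding genes passed 1 FPKM in some samples but not all. At the upper end 6898 protein-coding genes reached 10 FPKM, 947 reached 100 and 118 reached 1000 in every sample. At the lower end 3882 protein-coding genes (19.5%) were listed at 0 in all 3 samples. Protein-coding genes carried 95.6% ± 0.0292 (SD, n = 3) of all FPKM. Long intergenic noncoding RNA genes were expressed in 378 of 7470 cases, and processed pseudogenes in 143 of 10041 cases.

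FIBP, which encodes a fibroblast growth factor binding protein and is the gene the study silenced elsewhere in the series, lies on GRCh38 at chr11:65883741-65888539. Its levels were 88.4, 79.5 and 77.7 FPKM in the 3 samples, a mean of 81.9 ± 5.705 (SD, n = 3). EME1, a subunit of a DNA structure-cutting endonuclease used in recombination repair, lies at chr17:50373220-50381483. Its levels were 26.9, 22.2 and 23.6 FPKM. Both genes therefore stood above the 10 FPKM level in each sample, with replicate 1 the highest for both. The main FIBP transcript (ENST00000357519) held 56.3% of the gene's FPKM and the main EME1 transcript (ENST00000338165) held 56.5%.

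The most abundant RNAs were those of respiration and of protein synthesis. The 10 highest genes held 11.5% ± 0.133 of all FPKM and the 100 highest held 39.7% ± 0.162 (SD, n = 3). Of those 100 genes, 59 encoded cytosolic ribosomal proteins and 13 were the protein genes of the mitochondrial genome. The 84 cytosolic ribosomal protein genes together held 22.0% ± 0.241 of FPKM, and the 13 mitochondrial protein genes held 10.1% ± 0.152. MT-ATP8, a subunit of the mitochondrial ATP synthase, was listed highest at 20457, 20102 and 20957 FPKM. EEF1A1, which delivers aminoacyl-tRNA to the ribosome, followed at 11847, 12254 and 12492 FPKM. GAPDH, an enzyme of glycolysis, stood at 7648, 6945 and 6928 FPKM. The first place is uncertain, because the MT-ATP8 transcript is 207 nt long and the length correction inferred for these tables, at 271 to 298 nt, exceeds that. The same doubt covers MT-ND4L, of rank 4, whose transcript is 297 nt long. It extends to the shares above that include these genes.

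The remaining places among the 20 highest were filled by MT-CO2, MT-ND4L, MT-CO1, MT-CO3, MT-ATP6 and MT-ND3 of the respiratory chain and ATP synthase, by 9 ribosomal protein genes (RPL41, RPS20, RPS18, RPS27, RPS12, RPS16, RPL13, RPS23 and RPL7), by PPIA and by TMSB10. PPIA, a prolyl isomerase, was at 5037, 5625 and 5786 FPKM. TMSB10, which binds actin monomers, was at 5162, 5159 and 5069 FPKM. MT-ATP6, whose gene overlaps that of MT-ATP8 on the same mitochondrial RNA, was listed at only 5827 ± 115 FPKM (SD, n = 3) against 20505 ± 430 for MT-ATP8. MT-ND4L and MT-ND4 form a similar overlapping pair and were listed at 8946 ± 399 and 3756 ± 88.5. Processed pseudogenes also appeared high in the order, such as AC243919.1 at 2169 and RPL23AP42 at 1152 FPKM. Near-identical copies share reads, so these levels and those of their parent genes are uncertain.

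The lung lineage lists were mostly low. Across the 6 lists of alveolar, airway and neuroendocrine genes, 19 of 72 genes were expressed, against 57.3% of all protein-coding genes. The surfactant genes SFTPA1, SFTPA2, SFTPC and SFTPD were listed at 0 in all 3 samples, and SFTPB did not exceed 0.03 FPKM. NKX2-1, the transcription factor that specifies lung, was also at 0 in all 3 samples, as was FOXA2. Because these were bulk samples, fewer cells of a type and less RNA per cell cannot be told apart. The lung origin stated in the labels could thus not be read from the defining lung genes.

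Of the 12 alveolar type 2 genes, 3 were expressed (25%, beside 57.3% of all protein-coding genes). They were ETV5, an ETS factor, at 39.2, 39.8 and 38.6 FPKM, LPCAT1, which remodels phosphatidylcholine, at a mean of 21.2 ± 0.529, and ABCA3, the lamellar body lipid transporter, at 14.3 ± 0.971 (SD, n = 3). Of the 9 alveolar type 1 genes, 5 were expressed (55.6%, near the share of all protein-coding genes), so this list as a whole was not low. CAV1, the coat protein of caveolae, led them at 138.2, 139.7 and 133.1 FPKM, while PDPN, HOPX, AQP5 and CLIC5 were at 0 in all 3 samples. AGER, the receptor for glycated proteins, was at 3.83, 4.65 and 3.00 FPKM. The type 1 list thus held both an abundant gene and 4 genes listed at 0.

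Few airway cell genes were expressed. None of the 12 club and goblet cell genes was expressed, and SCGB1A1, MUC5AC, MUC5B and SPDEF were at 0 in all 3 samples. Of 11 ciliated cell genes 3 were expressed, led by CCDC39, an axoneme protein, at 4.16 ± 0.538 FPKM. FOXJ1, the master factor of motile cilia, did not exceed 0.04 FPKM. Of 10 basal and squamous genes only KRT15 was expressed in all 3 samples, at 5.97, 7.61 and 6.49 FPKM, while KRT5 and KRT14 were at 0 and TP63 did not exceed 0.04 FPKM. SOX2 lay on the threshold at 0.93, 1.09 and 1.20 FPKM.

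The neuroendocrine list was divided. UCHL1, a deubiquitinase abundant in neurons and neuroendocrine cells, was the gene of rank 145 in the whole transcriptome, at 813, 798 and 787 FPKM. Of the other 17 genes, 6 were expressed, and they included ENO2, the neuronal enolase, at 36.3, 24.7 and 23.4 FPKM and NMB, the peptide neuromedin B, at 16.7, 20.1 and 16.6 FPKM. SCG2 and CHGB, secretory granule proteins, were at 8.17 ± 0.954 and 3.69 ± 0.167 FPKM (SD, n = 3), and the Notch ligand DLL3 was at 7.39 ± 0.933. The factors that define the neuroendocrine state were at or near 0. INSM1 and CHGA were at 0 in all 3 samples, and NEUROD1 did not exceed 0.21 FPKM. High UCHL1 was thus not accompanied by RNA of the defining factors.

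Among 20 lung and foregut transcription factors, 5 were expressed (25%, beside 57.3% of all protein-coding genes). YAP1, the effector of the Hippo pathway, was at 41.4, 42.1 and 40.9 FPKM, and SOX9, a factor of the distal lung bud, at 29.8, 29.4 and 31.7 FPKM. GATA6 was at 6.02 ± 0.444, KLF5 at 4.23 ± 0.314 and ID2 at 9.17 ± 1.46 FPKM (SD, n = 3). HNF4A, CDX2, ELF3, EHF, TBX4 and TBX5 were at 0 in all 3 samples. As a check on other cells in the culture, 32 markers of blood, endothelium, fibroblasts, liver, pigment cells, muscle, nerve and islet cells were read. Of these, 2 were expressed (6.25%), the lysosomal protein CD68 at 31.96 ± 1.008 and the vesicle fusion protein SNAP25 at 9.94 ± 1.21 FPKM. CD3E, MS4A1, CDH5 and LUM were at 0 in all 3 samples, and PTPRC did not exceed 0.27 FPKM.

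Of 24 genes for peptide hormones and their receptors 7 were expressed (29.2%, beside 57.3% of all protein-coding genes), led by VGF, a granin-like secreted protein, at 40.2, 40.2 and 39.9 FPKM. STC1, a secreted glycoprotein, was at 27.5 ± 1.67 and NTSR1, the receptor for neurotensin, at 16.8 ± 0.935 FPKM (SD, n = 3). NTS, the ligand of that receptor, did not exceed 0.11 FPKM. For the bombesin family the ligand NMB was expressed, while its receptor NMBR did not exceed 0.12 FPKM and the related ligand GRP was at 0 in all 3 samples. GRPR was at 1.71, 1.48 and 0.98 FPKM.

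E-cadherin RNA was listed at 0 while vimentin RNA was among the most abundant. Of 34 epithelial genes 12 were expressed (35.3%), and of 34 mesenchymal genes 21 were expressed (61.8%), beside 57.3% of all protein-coding genes. CDH1 (E-cadherin; chr16:68737225-68835548) was listed at 0 in all 3 samples. VIM (vimentin; chr10:17228259-17237593) was the gene of rank 28, at 3369, 3175 and 3151 FPKM. No value of the one gene came near any value of the other.

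Among the cell adhesion genes of epithelium, EPCAM was at 0.04, 0 and 0.28 FPKM, and the claudin genes CLDN3, CLDN4 and CLDN7 did not exceed 0.75 FPKM. OCLN and TJP1, which encode occludin and the scaffold ZO-1 of tight junctions, were present at 8.08 ± 0.874 and 25.8 ± 0.747 FPKM (SD, n = 3). The desmosomal genes DSP and JUP were low, at 1.47 ± 0.0153 and 1.60 ± 0.0872 FPKM. The regulators of the epithelial state were at or near 0. GRHL2, OVOL1 and OVOL2 were at 0 in all 3 samples, and the splicing factors ESRP1 and ESRP2 did not exceed 0.18 and 0.24 FPKM. RAB25, a small GTPase of epithelial recycling endosomes, was also at 0 in all 3 samples, and so was PRSS8.

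Some epithelial RNA remained. KRT18 and KRT8, the paired keratins of simple epithelium, were at 478, 483 and 467 FPKM and at 107, 104 and 108 FPKM. KRT7 was at 8.33 ± 0.918 FPKM (SD, n = 3), whereas KRT19 did not exceed 0.29 FPKM. AP1M2, the adaptor subunit used for basolateral sorting, was at 25.15, 19.97 and 21.39 FPKM, and PKP3, a desmosomal plakophilin, at 8.48 ± 0.598. SPINT2, a protease inhibitor, was the most uneven expressed member, at 2.78, 4.03 and 9.07 FPKM.

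On the mesenchymal side NT5E (CD73, an ecto-nucleotidase) was at 288, 282 and 287 FPKM, and AXL, a receptor kinase, at 162, 155 and 156 FPKM. CDH2 (N-cadherin) was lower, at 13.4, 12.8 and 13.7 FPKM, and FN1 (fibronectin) was at 11.3, 12.5 and 9.74 FPKM. Of the transcription factors, ZEB1, ZEB2, TWIST1 and TWIST2 were expressed at 10.4 ± 0.764, 10.9 ± 0.822, 8.48 ± 1.09 and 3.89 ± 0.116 FPKM (SD, n = 3), while SNAI1 and SNAI2 stayed at 0.300 ± 0.0265 and 0.460 ± 0.0458. Fibrillar collagens were not part of the pattern. COL1A2, together with CDH11, THY1 and FOXC2, was at 0 in all 3 samples, COL1A1 did not exceed 0.14 FPKM and COL3A1 did not exceed 0.03 FPKM.

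**Figure D1:**
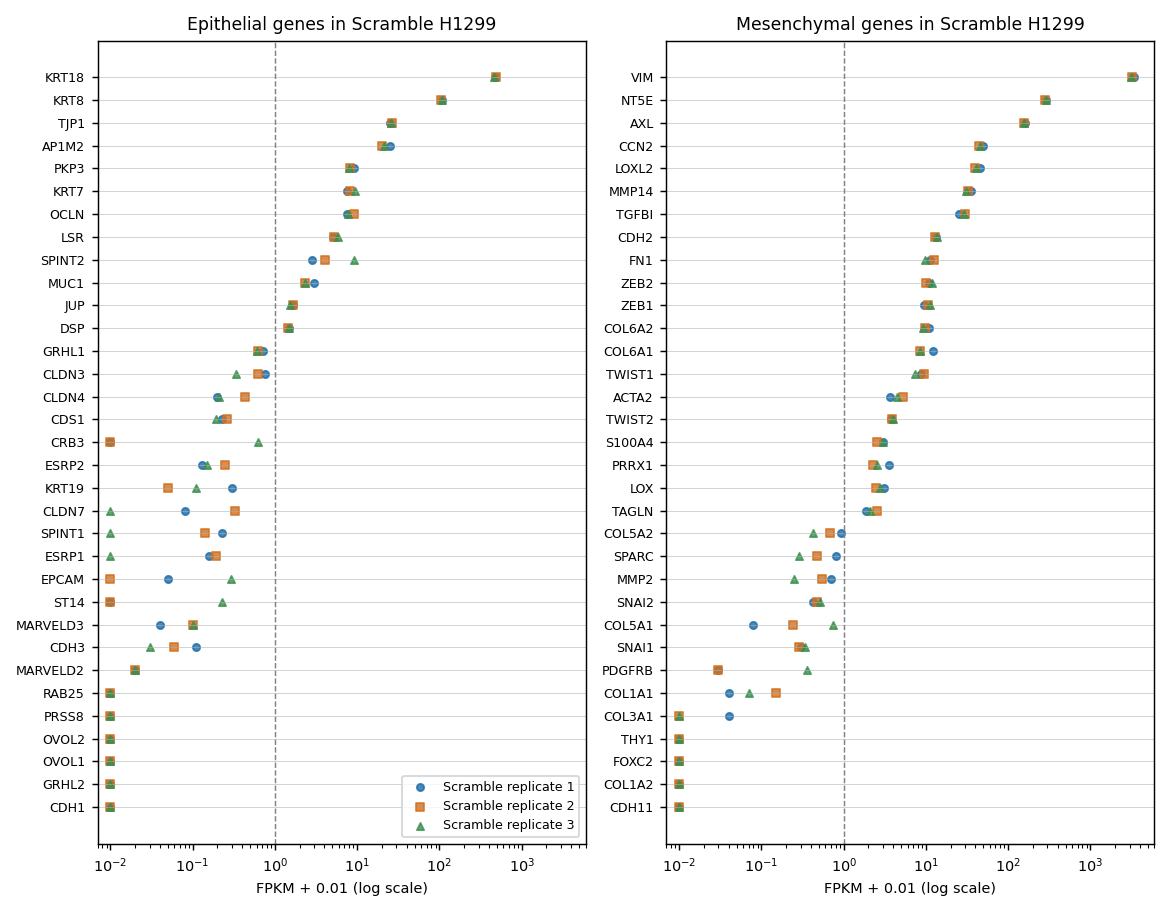
FPKM plus 0.01 on a log axis (x) of epithelial and mesenchymal list members (y, 1 of each list not drawn), with a symbol for each of the 3 Scramble replicates and a dashed line at 1 FPKM. The symbols of most expressed genes lie close together, those of SPINT2 run from 2.78 to 9.07, KRT18 and VIM top their panels, and CDH1 lies at the left edge, which stands for 0.

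Cadherins and intermediate filaments were also read as whole lists, beside the 57.3% of all protein-coding genes. Of 23 cadherin genes 3 were expressed (13.0%), CDH2, CDH8 at 4.58 ± 1.06 and CDH24 at 3.49 ± 0.616 FPKM (SD, n = 3), and 10 were at 0 in all 3 samples. Of 44 intermediate filament genes 14 were expressed (31.8%), 6 of them keratins. After VIM the highest was LMNA, which encodes the lamins A and C of the nuclear envelope, at 544, 532 and 527 FPKM. INA, a neuronal filament protein, was at 41.5, 39.2 and 38.5 FPKM, and SYNM at 14.1 ± 0.0351. Of the 55 keratin genes in the annotation, 6 were expressed and 38 were at 0 in all 3 samples. The claudin family had 3 of 24 genes expressed, CLDN12, CLDN15 and CLDN1.

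Promoter sequence was read beside these levels because the E-box CAGGTG is the letter pattern bound by ZEB and SNAI factors. RefSeq promoters (GRCh38.p14, 250 bases before to 50 after the start) were matched for 15106 protein-coding genes, and CAGGTG or its reverse complement CACCTG occurred in 19.7% of them. Only 17 of the 34 epithelial and 19 of the 34 mesenchymal genes had a promoter in the table. Of these, 9 of 17 epithelial windows (52.9%) and 3 of 19 mesenchymal windows (15.8%) held an E-box. With so many members missing, a comparison of the lists was void, and no conclusion is drawn from these counts. The promoter of RAB25 (chr1:156060910-156061209, plus strand), silent here, and that of VIM (chr10:17227991-17228290, plus strand), the most abundant mesenchymal gene, are shown as examples, with E-boxes in capitals. The RAB25 window held 2 E-boxes and the VIM window held 0, and other epithelial windows differed too, with 3 in AP1M2 (22.2 FPKM), 5 in CRB3 (0.203 FPKM) and 0 in MARVELD2 (0.01 FPKM). These counts describe letters and not binding, and no relation to level was tested.
RAB25: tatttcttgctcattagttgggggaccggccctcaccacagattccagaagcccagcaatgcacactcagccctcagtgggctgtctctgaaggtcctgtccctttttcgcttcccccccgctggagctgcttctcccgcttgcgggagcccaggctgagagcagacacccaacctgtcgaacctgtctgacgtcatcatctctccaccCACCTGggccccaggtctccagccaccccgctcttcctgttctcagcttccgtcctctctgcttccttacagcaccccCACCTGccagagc
VIM: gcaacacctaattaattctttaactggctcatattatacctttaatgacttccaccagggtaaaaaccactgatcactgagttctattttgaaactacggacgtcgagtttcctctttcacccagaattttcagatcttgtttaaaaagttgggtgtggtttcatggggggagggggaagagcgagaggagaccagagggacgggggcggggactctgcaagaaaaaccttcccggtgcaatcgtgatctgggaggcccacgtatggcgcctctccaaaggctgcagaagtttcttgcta

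Of 48 oncogenes 31 were expressed (64.6%), a share near the 57.3% of all protein-coding genes. RAC1, a small GTPase, led them at 192, 193 and 200 FPKM. CDK4 and CCND1, the partners that drive entry into S phase, were at 170, 171 and 164 FPKM and at 114.8, 113.8 and 112.5 FPKM. MYC was at 80.9, 70.4 and 81.5 FPKM, and MCL1, which blocks apoptosis, at 115.5 ± 0.6898 (SD, n = 3). Of these, MYC had the widest relative range, with replicate 2 below the other two.

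Among the RAS genes NRAS was at 38.3, 39.5 and 39.9 FPKM and HRAS at 36.1, 29.3 and 31.7 FPKM. The ranges of these 2 genes did not overlap. Among receptors EGFR was at 9.57, 9.70 and 9.50 FPKM, ERBB2 at 8.87, 10.02 and 9.88 FPKM and MET at 20.2, 20.7 and 20.1 FPKM. EGFR and ERBB2 did not differ beyond their spread. ALK, ROS1, NTRK2, NTRK3 and MYCN were at 0 in all 3 samples and RET did not exceed 0.01 FPKM. TERT, the catalytic subunit of telomerase, lay on the threshold at 0.94, 1.44 and 0.80 FPKM.

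Of 58 receptor tyrosine kinases, 20 were expressed (34.5%, beside 57.3% of all protein-coding genes). AXL was the highest, and its range from 155 to 162 FPKM lay above that of the next, EPHA2, at 64.1, 58.9 and 56.7 FPKM. RYK followed at 32.4 ± 0.358, FGFR1 at 31.1 ± 1.87 and EPHB4 at 24.7 ± 1.90 FPKM (SD, n = 3). RYK and FGFR1 did not differ beyond their spread. MERTK and TYRO3, of the same family as AXL, were at 11.2 ± 0.357 and 8.84 ± 0.635. KIT, FLT1, TEK and MUSK did not exceed 0.03 FPKM, whereas FLT4, a receptor of lymphatic vessels, was at 5.84, 5.90 and 4.06 FPKM.

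Of 52 tumor suppressor genes 46 were expressed (88.5%, beside 57.3% of all protein-coding genes). CDKN2A led them at 200, 180 and 168 FPKM, followed by SMARCB1 at 85.5 ± 0.752 (SD, n = 3). RB1, the brake on E2F factors, was at 21.34, 18.97 and 20.06 FPKM, and STK11, which encodes the kinase LKB1, at 29.46, 28.82 and 29.03 FPKM. The ranges of these RB1 and STK11 sums did not overlap, but their leading transcripts stood in the reverse order. ENST00000267163 of RB1 was at 18.86, 17.77 and 18.16 FPKM and ENST00000326873 of STK11 at 16.93, 15.08 and 13.67 FPKM. The 6 members that were not expressed were DAPK1 and CDH13, both at 0 in all 3 samples, FHIT and RARB, which did not exceed 0.20 and 0.15 FPKM, and LRP1B and PTPRD, which did not exceed 0.41 and 0.40 FPKM.

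Genes of proliferation were uniformly present. All 28 cell cycle genes were expressed, beside 57.3% of all protein-coding genes. The median of their means was 80.0 FPKM, beside 3.4 FPKM for all protein-coding genes. UBE2C and CCNB1, which act in mitosis, were at 303, 298 and 304 FPKM and at 275, 282 and 286 FPKM. TYMS and PCNA, of DNA synthesis, were at 213 ± 5.28 and 184 ± 4.43 FPKM (SD, n = 3), and MKI67 was at 50.5 ± 1.73. The lowest member, CCNE2, was at 14.9 ± 1.24 FPKM.

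Genes that respond to signals and stress gave a mixed picture. Of 29 immediate early and stress genes 26 were expressed (89.7%, beside 57.3% of all protein-coding genes), led by FOSL1, an AP-1 subunit, at 283, 275 and 274 FPKM. FOS and EGR1 were lower, at 5.03 ± 0.634 and 8.96 ± 0.462 FPKM (SD, n = 3). TXNIP, a thioredoxin inhibitor induced by glucose, was listed at 0 in all 3 samples. Of 17 genes of hypoxia and cell contact 15 were expressed (88.2%), with CCN1, a secreted target of YAP1, at 131, 117 and 118 FPKM. CA9 and EGLN3, both induced by low oxygen, did not exceed 0.13 and 0.24 FPKM. Of 26 interferon-stimulated genes 13 were expressed (50%, near the share of all protein-coding genes). ISG15, a ubiquitin-like modifier, led them at 92.1, 84.5 and 86.5 FPKM, while MX2, OAS1, RSAD2, CXCL10 and IFNB1 were at 0 in all 3 samples. Replicate 1 was the highest of the 3 for CCN1 and ISG15.

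The SWI/SNF chromatin remodeler had 28 of 29 genes expressed (96.55%, beside 57.3% of all protein-coding genes), all except the neuron-specific ACTL6B. Setting ACTB aside, which also encodes cytoplasmic actin, the highest means were those of ACTL6A, at 90.7, 83.9 and 96.3 FPKM, and SMARCB1, and their ranges overlapped. The ATPase subunits were among the lower members. SMARCA4 (BRG1; chr19:10960825-11079426) was at 12.6, 12.2 and 10.5 FPKM and SMARCA2 (BRM) at 9.74, 9.48 and 9.71 FPKM. Many transcripts shared these sums, and 47 of the 58 listed SMARCA4 transcripts and 30 of the 67 listed SMARCA2 transcripts were above 0. The highest SMARCA4 transcript held 10.99% of the gene's FPKM and the highest SMARCA2 transcript 11.7%, and both were annotated as processed transcripts. For RB1, the complete coding transcript (ENST00000267163) held 90.8%.

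An exon profile was then drawn. For each exon of a gene's full-length transcript, the FPKM of all Ensembl transcripts that contain it were added. Assembled transcripts were left out, among them MSTRG.13389.1 (5500 nt, 0.553 FPKM) and MSTRG.13389.2 (5485 nt, 0.507 FPKM) of SMARCA4. Whether these hold exon 1 was not determined, so the sums are not levels of complete RNA. For SMARCA4 the sum was 0.997 ± 0.280 FPKM at exon 1 and 6.72 ± 0.763 at exon 31 (SD, n = 3), and it was lower at exon 1 than at exon 31 in all 3 samples. For SMARCA2 it was 2.13 ± 0.178 at exon 1 and 7.66 ± 0.762 at exon 31. For RB1 it was 18.4 ± 0.722 at exon 1 and 18.3 ± 0.546 at exon 27. These sums add transcript levels and not reads per exon, and the full-length transcript held 90.8% of RB1. A level profile was thus fixed in advance for RB1, which is no comparison for the other genes. For SMARCA4 and SMARCA2 the number of listed transcripts moved with the sums. SMARCA4 exon 1 was in 10 listed transcripts and exon 31 in 43, SMARCA2 exon 1 was in 5 and exon 31 in 36, and the dips at SMARCA4 exon 27 and SMARCA2 exon 29 fell on exons in 19 and 9. The part of annotation in the slope was not tested.

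**Figure D2:**
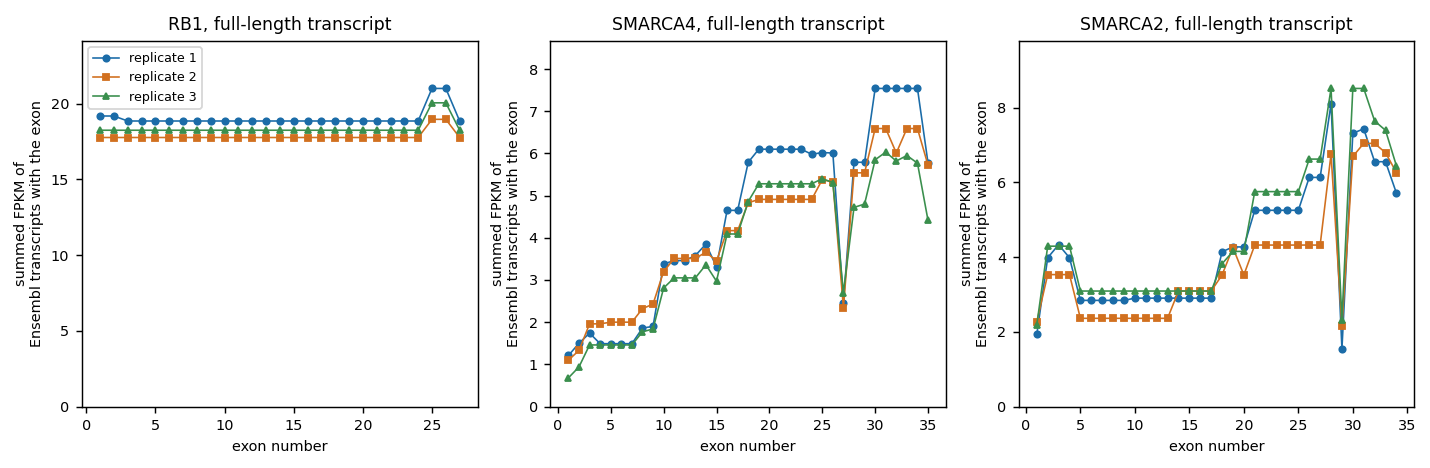
Summed FPKM of the Ensembl transcripts that contain each exon (y) against exon number of the full-length transcript (x) for RB1, SMARCA4 and SMARCA2, with a line for each Scramble replicate. RB1, with 90.8% of its FPKM in the full-length transcript, stays near 18.3 (mean of 3) at most exons. SMARCA4 and SMARCA2 are lower at their 5′ exons than towards their 3′ exons.

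CDKN2A (chr9:21967753-21995301, minus strand) encodes the CDK inhibitor p16INK4a from exon 1-alpha and the MDM2 inhibitor p14ARF from exon 1-beta, both joined to the same exon 2. Transcripts with exon 1-beta (chr9:21994139-21994624) were at 178, 166 and 147 FPKM and held 89.5% of the gene. Transcripts with exon 1-alpha (chr9:21974678-21975098) were at 0.09, 0 and 0.18 FPKM and held 0.0508%. No value of the one class came near any value of the other. A further 10.4% of the gene lay in 9 other Ensembl transcripts, assigned to neither class.

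The wider region of chromosome 9p21, which is often lost in tumors, was read in 18 genes. Of these 9 were expressed (50%, again near the share of all protein-coding genes). The genes read include a noncoding RNA, CDKN2B-AS1, so the shares are over unlike gene types. Next to CDKN2A, CDKN2B was at 12.3, 10.9 and 9.19 FPKM, its antisense RNA CDKN2B-AS1 at 5.82, 5.03 and 6.82 FPKM, and MTAP, an enzyme of methionine salvage, at 22.2, 20.7 and 24.3 FPKM. The interferon genes of the region, IFNA1, IFNA2 and IFNB1, were at 0 in all 3 samples. The library kit was not stated to mark strand, so antisense RNA and the sense gene it overlaps cannot be fully told apart.

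PKM and CD44 have well-known alternative forms. PKM transcripts with exon 10, the PKM2 form of pyruvate kinase (chr15:72202454-72202620), were at 644, 594 and 588 FPKM. Those with exon 9, the PKM1 form (chr15:72203022-72203188), were at 10.3, 10.8 and 9.85 FPKM. Other Ensembl transcripts held 23.6% of PKM and assembled transcripts 7.8%, and these were assigned to neither form. CD44, the hyaluronan receptor, was at 316, 314 and 311 FPKM in all. Its standard junction from exon 5 to exon 16 held 49.7% against 7.46% for transcripts with variable exons between them. The other 42.8% lay in 30 Ensembl transcripts assigned to neither form. The CD44 standard junction is shown with the last 30 bases of exon 5 in capitals, since it is the sequence that the variable exons interrupt.
CD44 exon 5 to exon 16: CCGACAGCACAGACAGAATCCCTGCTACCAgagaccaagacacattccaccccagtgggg

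For FN1 the extra domain EDA exon was contained in transcripts holding 45.7% of the gene's FPKM and the EDB exon in 10.95%. HMGA2, an architectural chromatin protein that was chosen after its values were seen, was at 523, 545 and 534 FPKM, of which 73.1% lay in an assembled transcript without an Ensembl identifier. Over the 30 genes of the transcript use list, 29 were expressed (96.7%, beside 57.3% of all protein-coding genes), all except FGFR2. The list was chosen for reading transcript use, with earlier results of these data known, so no conclusion is drawn from its share.

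Transcript use was examined across all genes at a mean of 10 FPKM or more with 2 or more listed transcripts, 7243 in number. The leading transcript held a median of 59.2% of a gene's FPKM. It held 90% or more in 15.1% of genes and under 50% in 38.4%. In 6064 of 6938 genes that reached 10 FPKM in every sample (87.4%), the same transcript led in all 3 samples. Assembled transcripts held 5.63% ± 0.0426 of all FPKM (SD, n = 3) and led in 587 genes. Of the leading Ensembl transcripts with a GENCODE 29 type, 91.5% were protein-coding, 2.42% retained introns and 2.19% were targets of nonsense-mediated decay.

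Cancer-testis genes, which are normally read in germ cells, ranged from abundant to listed at 0. Of 61 such genes 22 were expressed (36.1%, beside 57.3% of all protein-coding genes) and 32 were at 0 in all 3 samples, as were 19.5% of all protein-coding genes. The members of a family are near-identical copies that share reads, so family sums are firmer than single genes. The GAGE family of chromosome X summed to 3969, 3969 and 3994 FPKM, led by GAGE12F at 1292 ± 48.4 and GAGE2A at 1060 ± 23.8 (SD, n = 3). The MAGEA family summed to 1029, 998 and 992 FPKM, of which MAGEA4 alone was at 607, 586 and 586 FPKM. The XAGE family summed to 713, 753 and 745 FPKM and the CTAG1 pair, which encodes NY-ESO-1, to 366, 379 and 361 FPKM.

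The listed levels of the XAGE1 copies, which share reads, moved against each other. Whether the genes themselves or the division of reads between them differed was not tested. XAGE1A was at 610, 688 and 670 FPKM and XAGE1B at 103, 64.9 and 74.4 FPKM, with replicate 1 the lowest for XAGE1A and the highest for XAGE1B. PRAME, a germline gene on chromosome 22, was at 82.1, 75.4 and 77.5 FPKM, and PASD1 at 20.7 ± 0.571 (SD, n = 3). Of the CT45A family 2 of 9 genes were expressed, led by CT45A1 at 9.66 ± 0.924 FPKM. Several other germline families were at or near 0. All 11 MAGEB genes, all 8 SSX genes and all 10 SPANX genes were at 0 in all 3 samples, and the 3 MAGEC genes did not exceed 0.03 FPKM.

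Imprinted genes were expressed in 15 of 38 cases (39.5%, beside 57.3% of all protein-coding genes). The list also holds noncoding genes such as H19 and MEG3, so these shares are over unlike gene types. GNAS, which encodes a G protein alpha subunit, led them at 916, 878 and 861 FPKM, followed by PEG10, a retrotransposon-derived gene, at 150, 178 and 179 FPKM. SGCE, the neighbor of PEG10, was at 68.4 ± 4.10 and PHLDA2 at 51.1 ± 6.10 FPKM (SD, n = 3). The growth factor IGF2 and the RNAs H19 and MEG3 did not exceed 0.01, 0.09 and 0.05 FPKM, and DLK1, GRB10, NDN and SNURF were at 0 in all 3 samples. Others lay between, such as PEG3 at 0.613 ± 0.107 and L3MBTL1 at 3.06 ± 0.604 FPKM.

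Of 45 long noncoding RNAs, listed because they are well known, 29 were expressed (64.4%). The share was 5.06% over all lincRNA genes and 8.42% over all antisense genes. The list was not limited to these classes, since RMRP is annotated as a ribozyme, so the shares are over unlike gene types. Hosts of small nucleolar RNAs were among the highest, with SNHG5 at 654, 742 and 771 FPKM, SNHG6 at 445, 434 and 454 FPKM and GAS5 at 453, 420 and 420 FPKM. NEAT1, the scaffold of paraspeckles, was at 247, 180 and 177 FPKM, with replicate 1 apart from the other two, whereas MALAT1 was at 186, 170 and 172 FPKM. RN7SL1, the RNA of the signal recognition particle, was at 560, 398 and 362 FPKM and RMRP at 15.7, 0 and 24.1 FPKM. Both RNAs lack a poly(A) tail, and poly(A) selection preceded library construction. HOTAIR, BANCR and PCAT1 were at 0 in all 3 samples.

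Whole gene families of other tissues were silent or nearly so. Of 386 olfactory receptor genes 4 were expressed and 295 were at 0 in all 3 samples. Of 94 keratin-associated protein genes 1 was expressed, KRTAP2-3 at 5.02, 3.17 and 3.41 FPKM. All 39 beta-defensin, all 18 late cornified envelope and all 22 PRAMEF genes were at 0 in all 3 samples. By contrast all 78 mitochondrial ribosomal protein genes were expressed, and 425 of 517 ZNF zinc finger genes were (82.2%). The share over all protein-coding genes was 57.3%.

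Silent genes also lay side by side. Runs of neighboring protein-coding genes that were all under 0.1 FPKM in all 3 samples numbered 42 at a length of 10 or more, and they held 735 genes. The longest had 66 genes on GRCh38 chr11:48216810-57237314, from OR4B1 to APLNR, of which 57 were olfactory receptors. The next had 55 genes at chr1:152084144-153541765, from TCHHL1 to S100A5, and covered the epidermal differentiation cluster with 18 LCE and 11 SPRR genes. Its left neighbor S100A11 was at 426 FPKM and its right neighbor S100A4 at 2.86 FPKM.

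The next 3 runs by length were arrays of related genes as well. A run of 36 genes at chr21:29536933-31038476, from GRIK1 to KRTAP19-8, held 33 keratin-associated protein genes, and 31 genes at chr1:12644547-13617957, from AADACL4 to PDPN, held 22 PRAMEF genes. A run of 27 genes at chr4:8558725-10054936, from GPR78 to DRD5, held 20 USP17L genes and was followed by WDR1 at 209 FPKM. By nuclear chromosome, the share of protein-coding genes expressed ran from 46.6% on X, 47.2% on 21 and 48.7% on 11 to 63.1% on 16.

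For comparison, 287 genes of ribosomal, proteasome, respiratory chain, translation factor, splicing and chaperonin families, chosen for being widely expressed, were read. Of these 271 were expressed, beside 57.3% of all protein-coding genes, and 8 were at 0 in all 3 samples. The 8 genes at 0 were COX4I2, COX6A2, COX7A1, COX8C, RPL10L, EIF4E1B, PSMB11 and ATP5MGL, several of which are copies used in muscle, testis or thymus.

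The 3 samples agreed closely. Pearson's r of log2(FPKM + 1) was 0.982, 0.981 and 0.984 for the pairs 1 and 2, 1 and 3, and 2 and 3, over 13954 genes with a mean of 1 FPKM or more, and Spearman's rho was 0.981, 0.980 and 0.984. For the 11616 protein-coding genes among them r ran from 0.993 to 0.994. Each coefficient was taken across genes, and genes do not count as independent replicates. Over 7176 protein-coding genes at a mean of 10 FPKM or more, the median coefficient of variation (CV) was 4.89% and 10% of genes were above 11.95%. Replicate 1 lay farthest from the median of the 3 for 44.2% of these genes, replicate 3 for 30.3% and replicate 2 for 25.5%.

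The depth of each sample was read from the steps of low values, since the tables held no counts. The estimates were 21750000, 22550000 and 20750000 fragments assigned to transcripts. Given that depth, a counting CV was taken as the inverse square root of each gene's fragments. Its median was 24.2% for genes with 10 to 30 fragments, where the median observed CV was 31.5%. For genes with 1000 to 3000 fragments the counting CV was 2.51% and 4.75% was observed. For genes above 10000 fragments the values were 0.794% and 2.28%. The counting CV holds for an unlimited number of samples, and counting alone would give a somewhat lower median over 3 samples. The observed median was above the counting value in every bin, and the median ratio of the CVs rose from 1.34 to 3.07 between the lowest and the highest bin. The counting value covers counting error only.

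**Figure D3:**
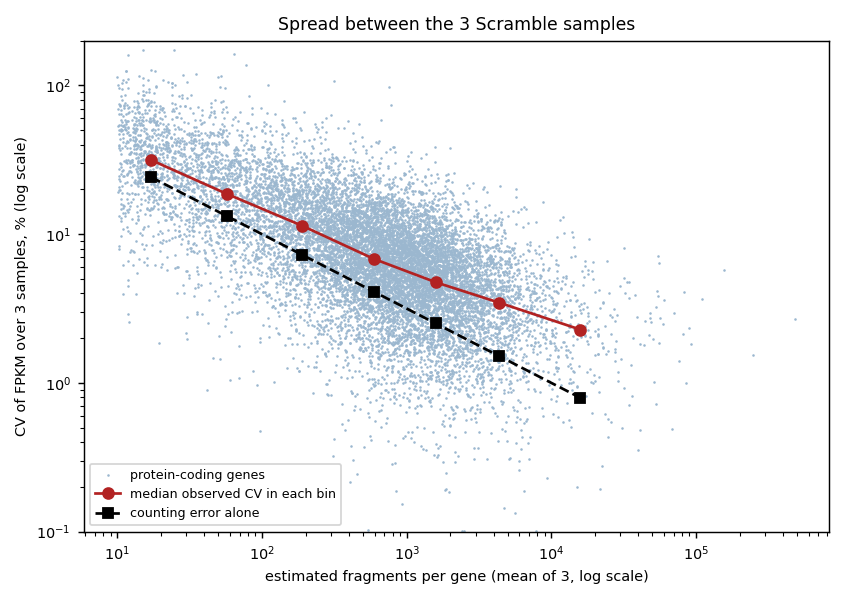
CV of FPKM over the 3 Scramble samples in percent (y, log axis) against the estimated fragments per gene (x, log axis) for protein-coding genes. Red circles are the observed medians per bin and black squares the medians of the counting CV, the inverse square root of the fragments. The red line runs above the black one in every bin, from 31.5% against 24.2% to 2.28% against 0.794%.

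The genes that differed most between samples were carried by very short transcripts. All of the 10 genes of highest CV at a mean of 10 FPKM or more were led by a transcript under 300 nt. SNORD94, a small nucleolar RNA, was at 88.5, 0 and 0 FPKM, SNORA2B at 44.3, 0 and 0 FPKM and SNORA4 at 0, 67.2 and 0 FPKM. SCARNA12 was at 0, 8.97 and 21.4 FPKM, and AL031591.1 at 60.8, 0 and 18.6 FPKM. The others were AC125257.2, AL049777.1, AC242842.2, FAM27B and RDH13. For RDH13, a retinol dehydrogenase and the only protein-coding gene of the 10, the levels were 7.25, 42.2 and 7.26 FPKM, and a transcript of 143 nt accounted for 0, 35.0 and 0 FPKM of them. Without that transcript the 3 samples lay close together.

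Presence in some samples only was more frequent among short transcripts in general. The length correction (298, 276 and 271 nt taken off each transcript in the 3 samples) was set from the length-weighted sum of FPKM and read against the steps of transcripts from 800 to 2000 nt, and how shorter transcripts than that correction were scaled was not determined. Of the 40 transcripts from 150 to under 200 nt that reached 10 FPKM in some sample, 70.0% were at 0 in another. Of the 3279 transcripts from 2000 to under 5000 nt that did so, 0.122% were.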

How the data were processed

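RNA-seq of 3 Scramble samples of H1299 cells was analysed, and the 6 tables of FIBP-depleted samples were not used. Per the labels, total RNA was taken with TRIzol, poly(A)-selected, made into TruSeq libraries and sequenced paired-end. The authors deposited FPKM per transcript, to 2 decimals, and the submitters' processing notes name HISAT2 and StringTie, whose versions, annotation release and genome build are not given in the sources used here. FPKM were summed per gene identifier. Gene types, exons and coordinates came from GENCODE 29 (GRCh38), which matched 57942 of 60455 genes by identifier. Genes of the Y chromosome, XIST and TSIX were left out. Samples were grouped by title. No test was run, since there was no contrast. Means, SDs, CVs and correlations of log2(FPKM + 1) were computed with Python 3.11.15, numpy 2.4.6, pandas 2.3.3 and scipy 1.17.1. Depth was estimated from the steps of low values and an inferred effective length, tested on simulated data. Transcript values are estimates from shared reads. Named genes were FIBP and EME1, the 20 most abundant, members of the lists, the 10 of highest CV and the ends of the 5 longest silent runs. Genes outside this rule (among them HMGA2, pseudogenes, leading or single expressed members of gene families, neighbors of silent runs and copies of housekeeping genes at 0) were chosen after their values were seen. The members and lists were chosen with earlier results of these data known. Alternatives covered TPM, Ensembl transcripts alone, other expression levels, pseudocounts and filters, and leaving out each sample. Some items are not reported here.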

Additional observations from a re-analysis of the deposited data

How the results depend on the processing

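Of 151 recomputed values, 126 stayed within the limits set for them (1.5 times for a count, 1 SD between samples or sample pairs for other values) and 25 moved. Counting Ensembl transcripts alone raised the share of the 10 most abundant genes from 11.5% to 12.1% and the median share of the leading transcript from 59.2% to 65.5%. Without mitochondrially encoded genes the share of the 10 was 8.62%. The lowest Pearson's r between samples, 0.981, became 0.979 on TPM, 0.957 with a pseudocount of 0.1 and 0.989 without a filter on low values, and lay between 0.980 and 0.983 when a sample was left out. At 5 FPKM, 11 of the 72 lineage genes were expressed in place of 19, 9417 genes in place of 13184 and 8 epithelial genes in place of 12. The median share of the leading transcript was 58.0% over genes from 1 FPKM, and 58.8% to 60.1% when a sample was left out. SMARCA4 fell to 10.1 FPKM over Ensembl transcripts alone, which follows from leaving out its assembled transcripts. TPM rescaled the single genes, FIBP to 104. No paired analysis was possible because a single group was described and no test was run. The tables held no counts, so depth is an estimate, and values of transcripts under 300 nt could be decided by few fragments.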
